A study of Homo sapiens with 9 samples.

Results

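The transcriptome of HK1 cells treated with siRNA against E2F3 was set directly against that of HK1 cells treated with siRNA against E2F1. HK1 is an established squamous cell line derived from a nasopharyngeal carcinoma. The comparison used 6 of the 9 RNA-seq libraries of the study, namely the 3 labelled si-E2F3 and the 3 labelled si-E2F1, and it covered 13455 of 58381 Ensembl gene entries, those at 1 FPKM (fragments normalised to transcript length and library size) or more in at least 3 of the 6 libraries. Both groups were grown in DMEM with serum, received siRNA at 100 nM and were collected after 48 h. The remaining 3 libraries received a non-targeting siRNA at the same dose and for the same time. Their levels are given below for orientation and they entered a fit only in 1 alternative, described in the closing section. Whether each target was hit with 1 siRNA sequence or with several, and whether libraries with the same siRNA were grown and transfected apart, is not given in the sources used here. A gene described as higher was higher after E2F3 siRNA than after E2F1 siRNA, and the contrast cannot tell a gene raised in one group from a gene lowered in the other.

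E2F transcription factors bind DNA together with a DP partner and control genes for entry into the cell cycle and for DNA synthesis. E2F1 and E2F3 are counted among the activator members and are held in check by the retinoblastoma protein, while E2F4 and E2F5 act mostly with pocket proteins in repression, and E2F7 and E2F8 are atypical repressors. Genes needed in S phase usually carry E2F sites near the start of transcription, and genes needed in mitosis often carry a different element, the cell cycle homology region, which is read by the MuvB complex.

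The 6 libraries separated by siRNA. On the first principal component of log2(FPKM + 1), which held 65.1% of the variance, the E2F1 siRNA libraries lay between -25.41 and -23.59 and the E2F3 siRNA libraries between 23.89 and 26.04. Pearson's r across genes was 0.989 to 0.991 between libraries of one group and 0.968 to 0.972 between libraries of different groups. The files give no read totals. From the smallest steps between low FPKM values, depth relative to the first E2F1 siRNA library was 0.972 to 1.24 in that group and 1.06 to 1.07 in the E2F3 siRNA group. Between 13140 and 13229 genes reached 1 FPKM after E2F1 siRNA and between 13520 and 13608 after E2F3 siRNA. Genes of the mitochondrial genome held 14.6 ± 0.640% (SD, n = 3) of all FPKM after E2F1 siRNA and 16.7 ± 0.342% after E2F3 siRNA, a difference of 2.11 percentage points with a two-sided exact permutation p = 0.1, the smallest that 3 against 3 libraries can give. Markers of squamous epithelial cells were present, with 12 of 12 at 1 FPKM or more and a summed level of 1484 to 1524 FPKM after E2F1 siRNA and 1316 to 1400 FPKM after E2F3 siRNA. Of the markers of other cell types that were checked, 1 of 10 for fibroblasts, 0 of 9 for endothelium, 3 of 11 for leukocytes and 3 of 7 for neural cells reached that level, and 0 of their defining markers were at 0 in all 6 libraries. The neural sum was 40.3 to 43.3 FPKM after E2F1 siRNA and 44.8 to 52.4 FPKM after E2F3 siRNA, with TUBB3 and MBP as its highest genes. The part of the mitochondrial share, of depth and of these markers in the differences below was not tested.

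Each targeted transcript was lowest in its own siRNA group. E2F1, on the minus strand at chr20:33675683-33686404 of GRCh38, measured 7.17, 7.95 and 7.33 FPKM after E2F1 siRNA and 21.21, 22.97 and 21 FPKM after E2F3 siRNA. The E2F3 siRNA libraries lay above the E2F1 siRNA libraries without overlap (log2 difference 1.42, SE 0.07, limma adjusted p = 7.17e-06, two-sided, with Benjamini-Hochberg adjustment over the 13455 genes, as for every adjusted p below). E2F3, on the plus strand at chr6:20401906-20493715, measured 29.19, 27.78 and 29.23 FPKM after E2F1 siRNA and 12.61, 10.52 and 11.02 FPKM after E2F3 siRNA. Here the order was the opposite, again with no overlap (log2 difference -1.27, SE 0.08, limma adjusted p = 1.39e-05). After the non-targeting siRNA, E2F1 averaged 19.9 FPKM and E2F3 25.4 FPKM.

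Of the other 6 E2F genes, 4 were lower after E2F3 siRNA and none was higher. E2F5, a repressor that works with pocket proteins, measured 17.35, 15.25 and 18.62 FPKM after E2F1 siRNA and 10.64, 10.38 and 10.49 FPKM after E2F3 siRNA (log2 difference -0.65, SE 0.08, limma adjusted p = 0.000527). E2F8, an atypical repressor, measured 11.14, 10.82 and 10.06 FPKM after E2F1 siRNA and 6.88, 5.78 and 7.28 FPKM after E2F3 siRNA (log2 difference -0.61, SE 0.10, limma adjusted p = 0.00149). E2F4, the most abundant E2F transcript of these cells, stood at 84.01 ± 1.77 against 62.7 ± 3.603 FPKM (mean ± SD, n = 3, E2F1 siRNA named first here and below; log2 difference -0.42, SE 0.05, limma adjusted p = 0.00052). These 3 differed without overlap between the groups, as did 54.4% of all genes tested. E2F2, the remaining activator, was 12.95 against 10.7 FPKM (log2 difference -0.26, SE 0.08, limma adjusted p = 0.0291), and this call did not hold under upper-quartile scaling (log2 -0.21, adjusted p = 0.0514), without the filter on low genes (adjusted p = 0.061) or without replicate 2 of E2F1 siRNA (adjusted p = 0.0934), replicate 3 of E2F1 siRNA (adjusted p = 0.057) or replicate 3 of E2F3 siRNA (adjusted p = 0.0928). E2F7 and E2F6 did not pass the test, with log2 differences of -0.04 and 0.10.

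Transcripts of proteins that work with E2F were more often lower. Of 13 tested genes for DP partners, pocket proteins, the MuvB complex and factors linked to them, 9 were lower, 1 was higher and 3 did not pass the test. Among all genes tested, 22.6% were higher and 21.3% lower, or 43.9% in either direction. MYB was 8.99 against 4.24 FPKM (log2 difference -0.92, SE 0.11, limma adjusted p = 0.000353), and MYBL2, the B-MYB subunit that joins MuvB for mitotic genes, was 152 against 106 FPKM (log2 -0.52, SE 0.04). The DP partner TFDP1 (195 against 164 FPKM, log2 -0.25, SE 0.04) and the mitotic activator FOXM1 (109 against 92.9 FPKM, log2 -0.23, SE 0.04) were lower by small amounts. LIN52, a MuvB subunit, was the 1 member that was higher, at 4.37, 4.23 and 5.19 FPKM after E2F1 siRNA and 7.12, 7.47 and 9.11 FPKM after E2F3 siRNA (log2 difference 0.67, SE 0.11, limma adjusted p = 0.00238).

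Across the transcriptome the contrast was broad and mostly shallow. Of 13455 genes, 5904 passed an adjusted p of 0.05, 3038 of them higher and 2866 lower after E2F3 siRNA. At an unadjusted p of 0.05 there were 6949. The median log2 difference of all genes tested was 0.01, with quartiles of -0.20 and 0.25, and 3592 of the genes that passed differed by less than 0.5 on the log2 scale. A difference of at least 1 on that scale was reached by 411 genes (3.05%), 236 higher (1.75%) and 175 lower (1.3%). For 7317 genes (54.4%) the 3 values of one group lay wholly above those of the other, with the E2F3 siRNA group above for 3781 (28.1%) and below for 3536 (26.3%). Groups without overlap were thus the more common state, and their mention for single genes below does not set those genes apart. With log2(FPKM + 1), differences of genes near the minimum are understated. By biotype, protein-coding genes were called in both directions in near-equal numbers (2658 higher and 2751 lower of 11757). Antisense transcripts (103 higher, 30 lower of 474) and long intergenic RNAs (108 higher, 23 lower of 403) were more often on the higher side. More genes reached 1 FPKM after E2F3 siRNA, and a low gene could enter the test through that group alone. With a minimum of 5 FPKM, 2471 genes of any biotype were higher and 2692 lower. The part of the filter in the split by biotype was not tested. Whether reads were counted by strand is not given in the sources used here, so an antisense transcript and its partner cannot be told apart.

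**Figure D1:**
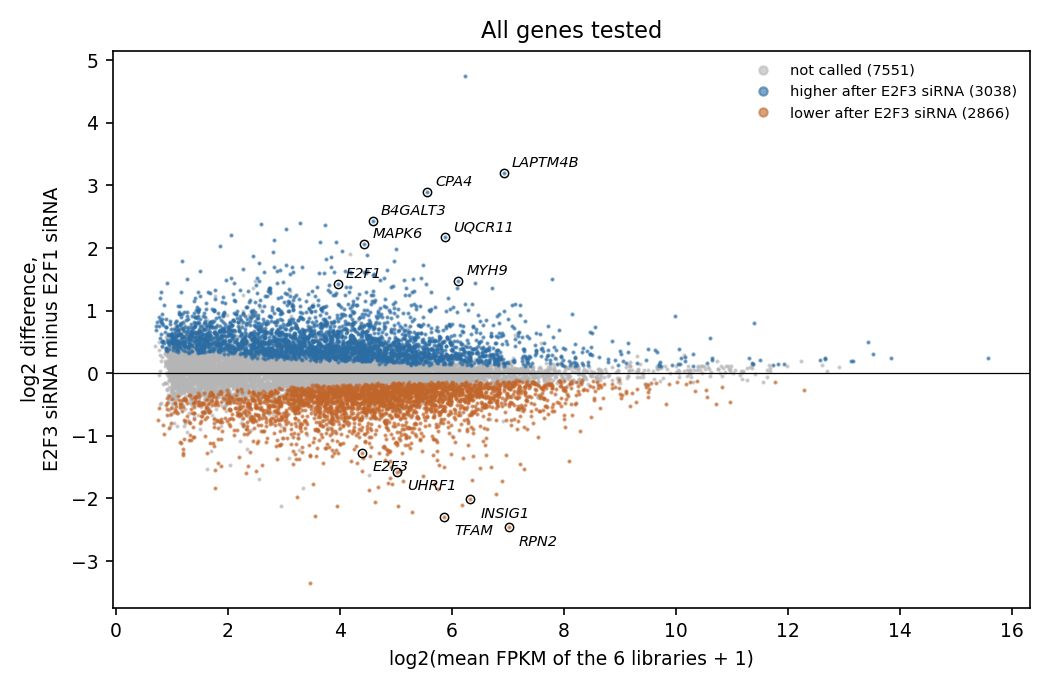
Log2 difference of each of the 13455 genes (E2F3 siRNA minus E2F1 siRNA, vertical) against log2 of its mean FPKM over the 6 libraries + 1 (horizontal), with genes at an adjusted p under 0.05 coloured by direction. The 3038 higher and 2866 lower genes lie on both sides of 0 across the whole range of expression.

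Among the leading rises, LAPTM4B, a lysosomal membrane protein of chromosome 8, measured 23.59, 22.73 and 22.35 FPKM after E2F1 siRNA and 212.02, 223.63 and 221.5 FPKM after E2F3 siRNA (log2 difference 3.20, SE 0.05, limma adjusted p = 3.07e-08). CPA4, a secreted carboxypeptidase, measured 11.48, 10.06 and 9.29 FPKM after E2F1 siRNA and 86.45, 85.13 and 76.66 FPKM after E2F3 siRNA (log2 difference 2.90, SE 0.08, limma adjusted p = 1.22e-06). Leading genes were picked for large differences without overlap between the groups. The non-targeting siRNA libraries, at 241 FPKM for LAPTM4B and 94.7 FPKM for CPA4, lay nearer to the E2F3 siRNA group. OSTM1, a partner of the lysosomal chloride transporter, stood at 2.16 ± 0.484 against 15.6 ± 1.46 FPKM (log2 difference 2.40, SE 0.13, limma adjusted p = 9.59e-06). B4GALT3, a Golgi galactosyltransferase, stood at 6.56 ± 0.316 against 39.7 ± 3.95 FPKM (log2 2.43, SE 0.08), and UQCR11, a small subunit of respiratory complex III, at 20.3 ± 2.18 against 95.3 ± 10.6 FPKM (log2 2.17, SE 0.10). MAPK6, which encodes the atypical kinase ERK3, stood at 7.41 ± 0.857 against 34.01 ± 0.566 FPKM (log2 2.06, SE 0.08). FZD6, a Wnt receptor of the Frizzled family, was 11.99 against 50.2 FPKM (log2 1.98, SE 0.06), FHL2, a LIM-domain cofactor, 8.53 against 34.2 FPKM (log2 1.89, SE 0.07), and PHF6, a chromatin protein, 5.81 against 25.3 FPKM (log2 1.95, SE 0.07). The largest fitted value belonged to LUZP6, whose libraries read 0, 0 and 83.85 FPKM against 88.72, 167.82 and 107.77 FPKM. It lies inside the gene MTPN on the same strand, so its reads are uncertain, and its call was lost when any library but replicate 3 of E2F1 siRNA was left out (adjusted p = 0.0745 to 0.113).

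Among the leading falls, RPN2, a subunit of the oligosaccharyltransferase that adds N-glycans, measured 222.08, 216.89 and 217.24 FPKM after E2F1 siRNA and 38.18, 39.67 and 38.69 FPKM after E2F3 siRNA (log2 difference -2.46, SE 0.04, limma adjusted p = 4.5e-08). TFAM, which packages and transcribes mitochondrial DNA, measured 96.3, 93.79 and 96.64 FPKM after E2F1 siRNA and 17.42, 18.37 and 20.48 FPKM after E2F3 siRNA (log2 difference -2.29, SE 0.06, limma adjusted p = 1.1e-06). The non-targeting siRNA libraries averaged 247 FPKM for RPN2 and 89.6 FPKM for TFAM, beside the E2F1 siRNA group in both cases. ERGIC1, a cargo-cycling protein between endoplasmic reticulum and Golgi, was 63.8 against 12.9 FPKM (log2 -2.22, SE 0.06), and CHCHD10, a mitochondrial intermembrane protein, 52.3 against 11.99 FPKM (log2 -2.13, SE 0.28). ANP32E, a histone H2A.Z chaperone, was 117 against 26.4 FPKM (log2 -2.10, SE 0.05), and the splicing factor SRSF9 176 against 45.5 FPKM (log2 -1.93, SE 0.06). INSIG1, which retains the sterol regulator SREBP in the endoplasmic reticulum, measured 130.73, 127.16 and 125.87 FPKM after E2F1 siRNA and 28.44, 33.86 and 30.96 FPKM after E2F3 siRNA (log2 difference -2.01, SE 0.07, limma adjusted p = 1.27e-06), with 47.6 FPKM after the non-targeting siRNA. AATF, an RNA polymerase II cofactor that also acts in ribosome assembly, read 13.52, 28.19 and 16.07 FPKM after E2F1 siRNA and 1.17, 0.67 and 0.91 FPKM after E2F3 siRNA (log2 difference -3.34, SE 0.24, limma adjusted p = 3.19e-05). Its E2F1 siRNA libraries varied more than those of the genes above, and the non-targeting libraries read 0.7, 0.44 and 14.63 FPKM, so this gene was not uniform within a group. It entered the test through the E2F1 siRNA group, where it is high, since 1 of the 3 E2F3 siRNA libraries reached 1 FPKM.

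**Figure D2:**
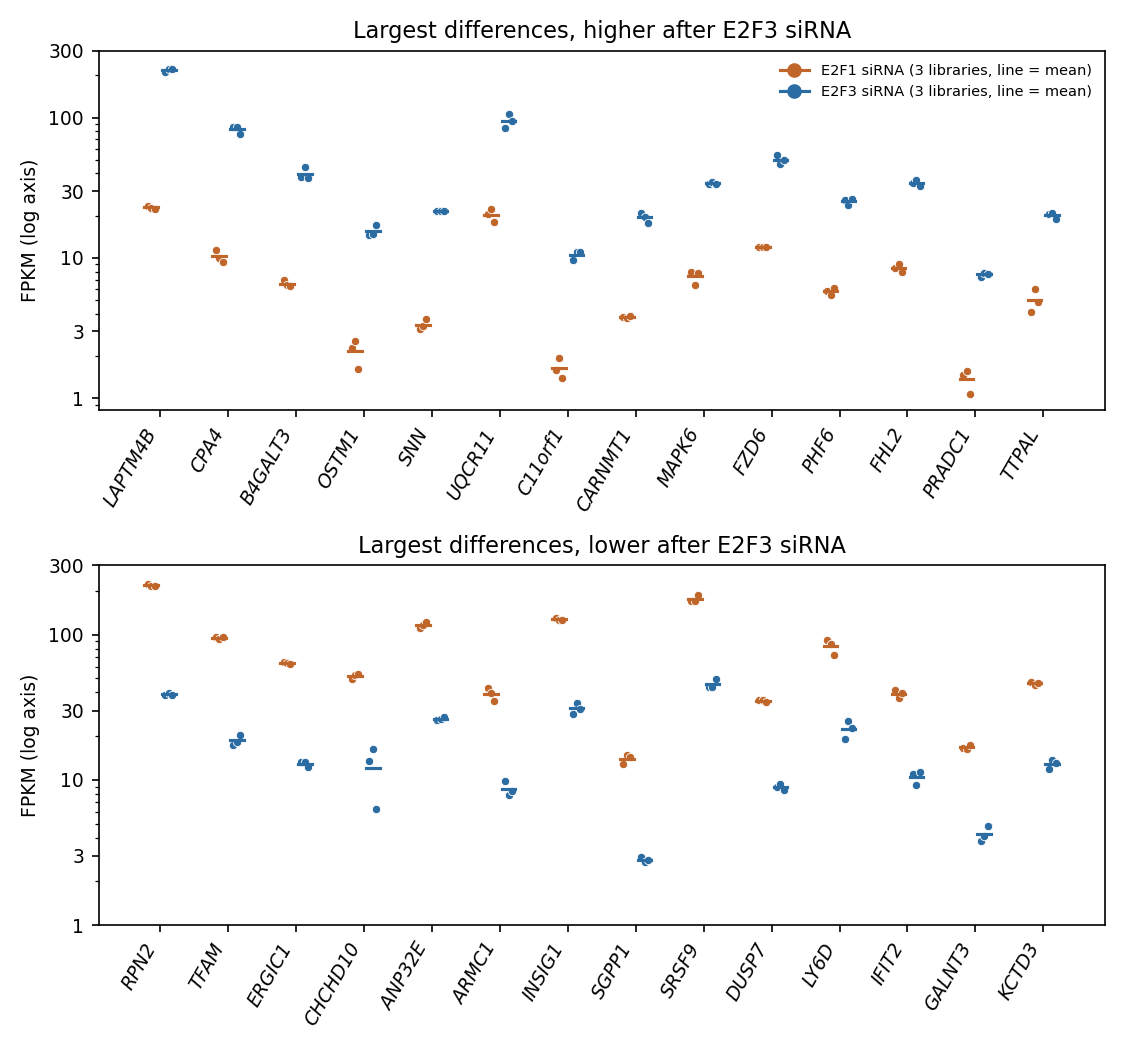
FPKM on a log axis of 14 leading rises (upper panel, LUZP6 not drawn) and 14 leading falls (lower panel, AATF not drawn), ordered by log2 difference, with 1 point for each of the 6 libraries and a line at each group mean. Only genes whose groups do not overlap were eligible, so the separation follows from the choice. LAPTM4B lies at 22.9 against 219.1 FPKM and RPN2 at 218.7 against 38.8 FPKM.

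DNA replication genes were more often lower after E2F3 siRNA, beside 21.3% lower and 22.6% higher among all genes tested. Of 60 tested genes for origin licensing, polymerases, clamp and fork, 34 were lower, 5 were higher and 21 did not pass the test, with a median log2 difference of -0.21 beside 0.01 for all genes. CDC45, which with the MCM ring and the GINS complex forms the replicative helicase, measured 49.61, 46.42 and 49.18 FPKM after E2F1 siRNA and 19.54, 18.78 and 19.64 FPKM after E2F3 siRNA (log2 difference -1.28, SE 0.05, limma adjusted p = 3.11e-06). MCM3 (169 against 94.5 FPKM, log2 -0.83, SE 0.04) and MCM5 (69.7 against 51.4 FPKM, log2 -0.43, SE 0.05), subunits of the ring, were lower, while MCM2 did not pass the test (log2 -0.03). Of the GINS subunits, GINS3 was lower, at 17.82, 17.34 and 17.18 FPKM after E2F1 siRNA and 9.94, 9.27 and 9.67 FPKM after E2F3 siRNA (log2 difference -0.80, SE 0.06, limma adjusted p = 4.97e-05). GINS1 was higher, at 9.29, 8.52 and 8.06 FPKM after E2F1 siRNA and 15, 15.21 and 14.47 FPKM after E2F3 siRNA (log2 difference 0.73, SE 0.07, limma adjusted p = 0.000176). The groups did not overlap for either subunit. PCNA, the sliding clamp, stood at 166 ± 2.68 against 98.4 ± 4.21 FPKM (log2 difference -0.75, SE 0.05, limma adjusted p = 1.38e-05). The clamp loader subunit RFC3 (50.1 against 26.8 FPKM, log2 -0.88, SE 0.05), the polymerase delta catalytic subunit POLD1 (27.6 against 13.6 FPKM, log2 -0.97, SE 0.08), the primase subunit PRIM2 (27.9 against 13.7 FPKM, log2 -0.97, SE 0.08) and the fork protector TIMELESS (23.4 against 11.7 FPKM, log2 -0.95, SE 0.09) were lower. POLD3, an accessory subunit of polymerase delta, was higher (15.7 against 23.9 FPKM, log2 0.58, SE 0.08), and POLA1 and POLE did not pass the test (log2 0.11 and -0.13).

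Promoter windows of these genes, from RefSeq on GRCh38.p14, were searched for E2F sites. The windows span 250 bases before to 50 bases after the annotated start, and counts use the 6871 of 13423 tested gene symbols with a single window. The search took TTTCCCGC, TTTGGCGC, TTTCGCGC and TTTGCCGC on both strands, and a match was present in 3.31% of the 35116 windows in the table and in 5.6% of the windows of tested genes. It was present in 7.6% of the windows of lower genes, 4.4% of higher genes and 5.22% of genes that did not pass the test. For origin licensing and helicase genes it was present in 11 of 18 windows (61.1%), among them 7 of 11 lower and 2 of 3 higher genes. For polymerase, clamp and fork genes it was present in 8 of 21 (38.1%). There it was less frequent in lower genes (3 of 11) than in genes that did not pass the test (5 of 10). The stretches below are shown because they carry such a match in lower genes (RFC3, GINS3 and the DNA methyltransferase gene DNMT1) and in a higher gene (GINS1) of the same complex as GINS3. They run 5′ to 3′ on the strand of the gene, with the match in capitals, which here is the reverse complement of the searched letters. RFC3 lies at chr13:33818064-33818131 (plus strand), GINS3 at chr16:58392436-58392503 (plus strand), GINS1 at chr20:25407648-25407715 (plus strand) and DNMT1 at chr19:10194918-10194985 (minus strand).
RFC3: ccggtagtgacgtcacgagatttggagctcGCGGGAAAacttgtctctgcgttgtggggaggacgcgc
GINS3: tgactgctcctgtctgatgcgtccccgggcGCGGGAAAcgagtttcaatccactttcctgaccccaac
GINS1: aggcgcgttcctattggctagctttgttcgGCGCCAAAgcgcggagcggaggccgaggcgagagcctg
DNMT1: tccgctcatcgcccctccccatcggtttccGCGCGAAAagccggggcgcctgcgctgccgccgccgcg
RFC3 and GINS3 carry the same 8 letters. MCM8, which was lower (log2 -0.67), carries the same letters as GINS1. A match is a description of the letters and was not tested as a bound site.

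Genes for the maintenance of DNA methylation and part of the polycomb genes were also lower. UHRF1, which recruits the maintenance methyltransferase to newly copied DNA, measured 48, 46.57 and 49.05 FPKM after E2F1 siRNA and 14.78, 15.66 and 15.88 FPKM after E2F3 siRNA (log2 difference -1.57, SE 0.05, limma adjusted p = 1.48e-06). DNMT1, that methyltransferase, measured 111.03, 98.8 and 112.45 FPKM after E2F1 siRNA and 59.24, 59.21 and 54.4 FPKM after E2F3 siRNA (log2 difference -0.89, SE 0.06, limma adjusted p = 3.01e-05). Neither gene showed overlap between the groups. EZH2, the polycomb methyltransferase, was 46.8 against 32.7 FPKM (log2 -0.50, SE 0.06), SUZ12, its partner, 37.04 against 31.7 FPKM (log2 -0.22, SE 0.05), and CBX2, a reader subunit, 14.5 against 9.82 FPKM (log2 -0.52, SE 0.07). In the list of 18 such genes 8 were lower, 3 higher and 7 did not pass the test. These 61.1% called stand beside 43.9% of all genes tested. EZH1, the relative of EZH2, was higher (13.98 against 19.02 FPKM, log2 0.42, limma adjusted p = 0.013), and its window also carried an E2F match. DNMT3A, another DNA methyltransferase, was higher too (log2 0.35). Its call was lost with no filter (adjusted p = 0.0903) and in 4 fits with a library left out.

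Nucleotide synthesis split in direction. Of 31 genes, 13 were lower, 7 higher and 11 did not pass the test. Higher genes were about as frequent as among all genes tested (22.6%), and lower genes more frequent (21.3%). TYMS, thymidylate synthase, which makes the thymine nucleotide from deoxyuridylate, measured 32.53, 35.6 and 39.36 FPKM after E2F1 siRNA and 83.6, 79.9 and 88.61 FPKM after E2F3 siRNA (log2 difference 1.21, SE 0.07, limma adjusted p = 1.57e-05). TK1, the salvage kinase for thymidine, measured 139.86, 141.61 and 133.74 FPKM after E2F1 siRNA and 78.16, 82.28 and 85.27 FPKM after E2F3 siRNA (log2 difference -0.75, SE 0.05, limma adjusted p = 1.81e-05). The 2 routes to the same nucleotide thus differed in opposite directions, each without overlap. The ribonucleotide reductase subunit RRM2 (89.9 against 126 FPKM, log2 0.48, SE 0.06), the purine enzyme ATIC (51.1 against 78.6 FPKM, log2 0.61, SE 0.07) and the serine synthesis enzyme PHGDH (113 against 179.9 FPKM, log2 0.66, SE 0.07) were higher, while the pyrimidine enzyme CAD (26.2 against 19.9 FPKM, log2 -0.38, SE 0.06) and the mitochondrial folate enzyme SHMT2 (184 against 137 FPKM, log2 -0.42, SE 0.05) were lower. RRM1 did not pass the test (log2 -0.06).

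Repair by homologous recombination and the Fanconi pathway had 13 lower and 0 higher genes of 33, with 20 that did not pass the test. These 39.4% called, all lower, stand beside 43.9% called and 21.3% lower among all genes tested. HELLS, a chromatin remodeller, was 52.7 against 26.4 FPKM (log2 -0.97, SE 0.05), FANCE 15.1 against 8.07 FPKM (log2 -0.83, SE 0.07), and BRCA1 45.5 against 34.9 FPKM (log2 -0.37, SE 0.06). Among 17 checkpoint genes 5 were higher and 2 lower, or 41.2% called, near the 43.9% of all genes tested. WEE1, the kinase that restrains CDK1, was higher, at 50.69, 50.45 and 52.45 FPKM after E2F1 siRNA and 89.05, 92.44 and 84.18 FPKM after E2F3 siRNA (log2 difference 0.78, SE 0.05, limma adjusted p = 1.76e-05), and the kinases ATM, ATR and CHEK1 did not pass the test, with log2 differences of -0.04, 0.19 and 0.06.

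Mitotic genes were lower after E2F3 siRNA in their majority, beside 21.3% lower and 22.6% higher among all genes tested. In the 3 lists for kinetochore and spindle checkpoint, mitotic kinases and the anaphase-promoting complex, and kinesins, condensins and cytokinesis, 64 of 95 tested genes were lower, 2 were higher and 29 did not pass the test, with a median log2 difference of -0.39. The higher genes were LMNB1 and the centrosomal kinase NEK2 (22.3 against 36.4 FPKM, log2 0.68), the latter named here after its value was seen. CDC20, the activator of the anaphase-promoting complex, measured 122.94, 136.99 and 124.5 FPKM after E2F1 siRNA and 64.94, 70.05 and 72.05 FPKM after E2F3 siRNA (log2 difference -0.88, SE 0.06, limma adjusted p = 2.37e-05). PLK1, a kinase of spindle assembly and mitotic exit, measured 95.79, 95.06 and 102.45 FPKM after E2F1 siRNA and 54.72, 60.27 and 57.16 FPKM after E2F3 siRNA (log2 difference -0.76, SE 0.05, limma adjusted p = 2.87e-05). In both, each E2F3 siRNA library lay below each E2F1 siRNA library. AURKA, the centrosomal Aurora kinase, was 125 against 74.97 FPKM (log2 -0.73, SE 0.04), and the chromosomal passenger genes INCENP (61.6 against 37.5 FPKM, log2 -0.70, SE 0.05), AURKB (112 against 76.5 FPKM, log2 -0.54, SE 0.04) and BIRC5 (91.5 against 62.4 FPKM, log2 -0.54, SE 0.07) were lower together. Of the kinetochore list, 16 of 31 genes were lower and 0 higher, among them the checkpoint kinase TTK (43.5 against 22.1 FPKM, log2 -0.94, SE 0.05), the centromeric histone CENPA (16.7 against 9.66 FPKM, log2 -0.76, SE 0.14), its chaperone HJURP (27.2 against 17.6 FPKM, log2 -0.60, SE 0.06) and NDC80 (28.1 against 19.5 FPKM, log2 -0.50, SE 0.07). BUB1 did not pass the test (log2 -0.01).

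The motor and condensin list held 29 lower genes of 35, with 1 higher and a median log2 difference of -0.39. Its share called was 85.7%, beside 43.9% of all genes tested. KIFC1, a minus-end-directed kinesin, measured 22.93, 22.76 and 21.48 FPKM after E2F1 siRNA and 10.72, 11.53 and 9.72 FPKM after E2F3 siRNA (log2 difference -1.01, SE 0.08, limma adjusted p = 3.75e-05). MKI67, which encodes the proliferation marker Ki-67 and coats mitotic chromosomes, measured 51.41, 52.73 and 51.1 FPKM after E2F1 siRNA and 31.67, 30.62 and 31 FPKM after E2F3 siRNA (log2 difference -0.72, SE 0.05, limma adjusted p = 1.76e-05). TOP2A, which untangles sister DNA, was 119 against 86.8 FPKM (log2 -0.46, SE 0.05), the condensin subunit NCAPH 36.1 against 23.7 FPKM (log2 -0.59, SE 0.10) and the kinesin KIF11 34.7 against 27.8 FPKM (log2 -0.31, SE 0.06). LMNB1, a protein of the nuclear lamina, was the member on the higher side, at 65.17, 64.2 and 70.02 FPKM after E2F1 siRNA and 105.48, 103.13 and 106.45 FPKM after E2F3 siRNA (log2 difference 0.65, SE 0.05, limma adjusted p = 3.25e-05).

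The same promoter windows were searched for the core of the cell cycle homology region, TTTGAA or TTTAAA on either strand (the latter reads the same on both), which is short and was present in 24.0% of all windows and in 14.7% of those of tested genes. It was present in 23 of 24 windows (95.8%) of the motor and condensin list, 13 of 23 (56.5%) of the kinetochore list and 10 of 18 (55.6%) of the mitotic kinase list. Among tested genes as a whole it was present in 14.3% of lower, 15.1% of higher and 14.6% of the genes that did not pass the test. Stretches of 3 lower mitotic genes show the element close to the annotated start, with the match in capitals as above. INCENP lies at chr11:62123971-62124036 (plus strand), KIFC1 at chr6:33391797-33391862 (plus strand) and MKI67 at chr10:128126417-128126500 (minus strand).
INCENP: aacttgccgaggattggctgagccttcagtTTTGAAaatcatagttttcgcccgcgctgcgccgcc
KIFC1: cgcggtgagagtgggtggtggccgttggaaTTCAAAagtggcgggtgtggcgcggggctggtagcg
MKI67: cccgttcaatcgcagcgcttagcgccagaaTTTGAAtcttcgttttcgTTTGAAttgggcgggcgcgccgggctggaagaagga
MKI67 holds the letters in duplicate, and in KIFC1 the match is on the opposite strand.

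**Figure D3:**
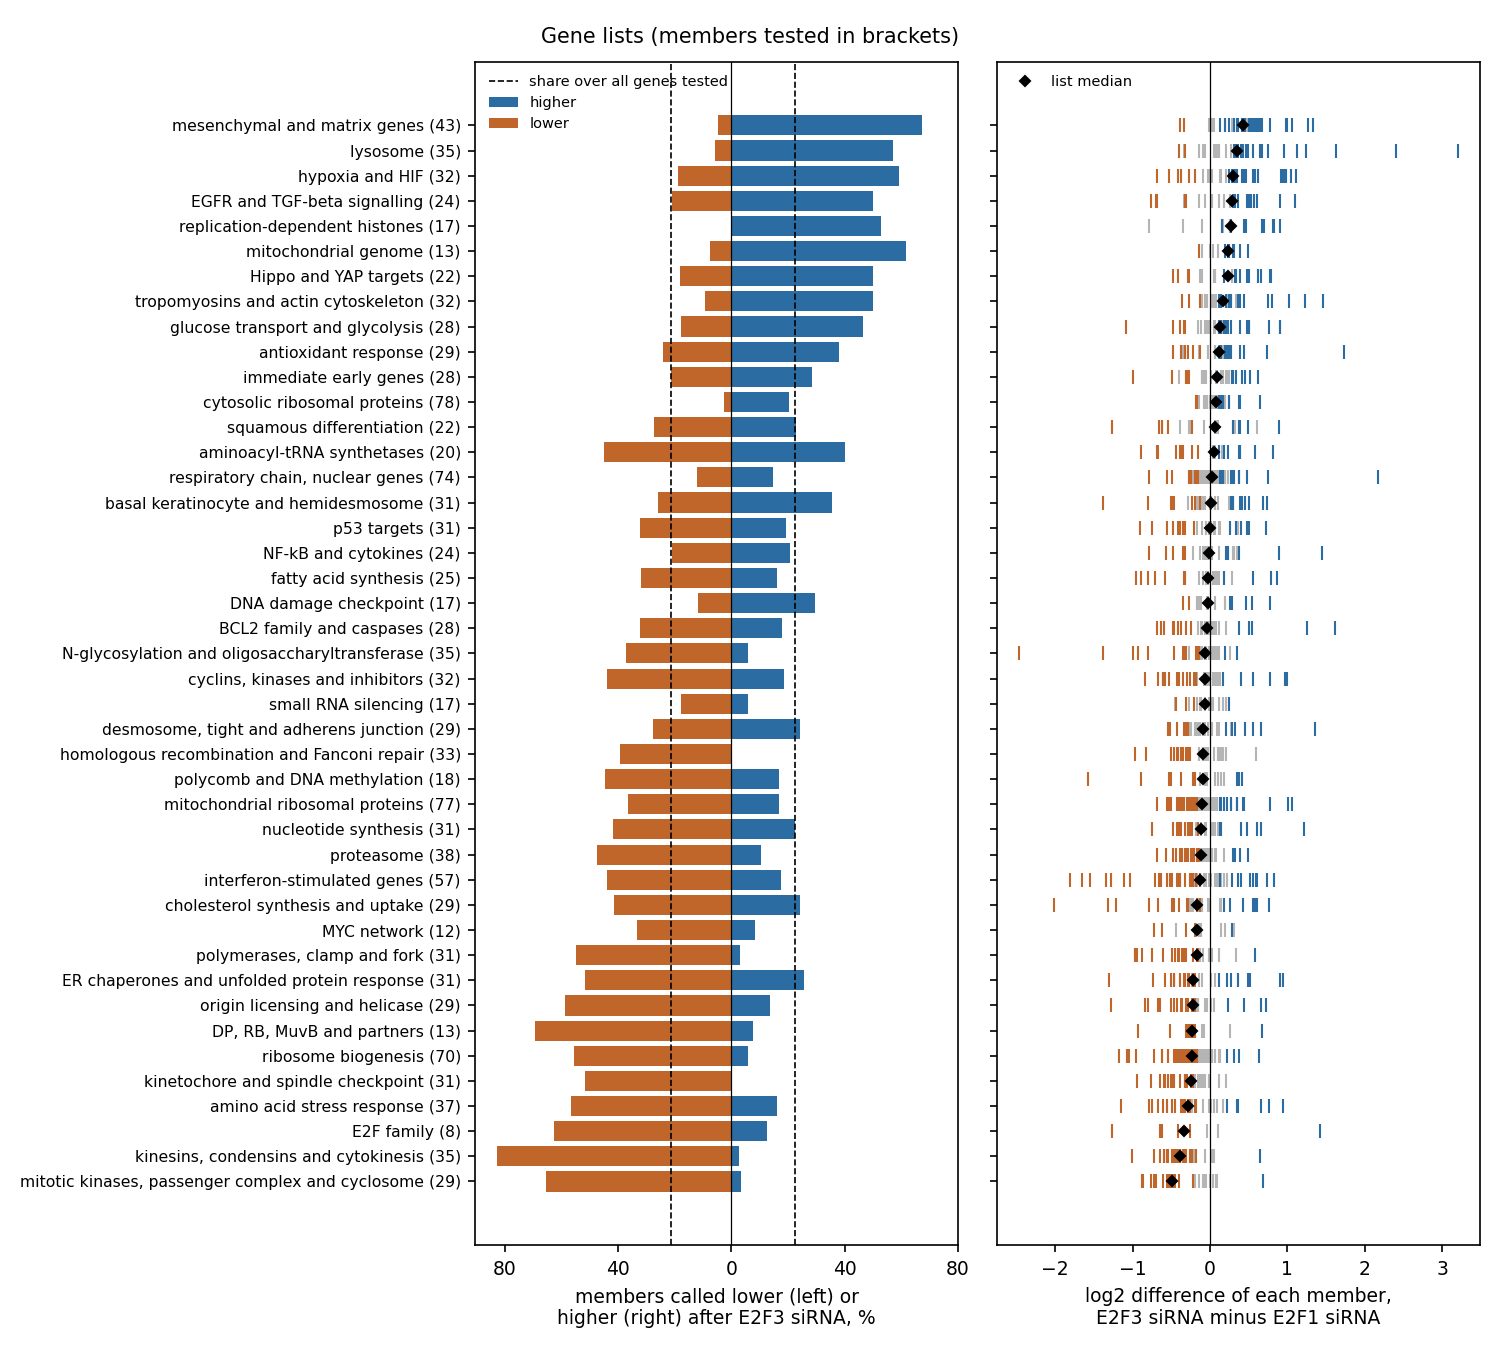
For each gene list, the percent of tested members that were lower (bars to the left) or higher (bars to the right) in the left panel, with dashed lines at the shares over all genes tested (21.3% and 22.6%), and in the right panel the log2 difference of each member as a tick, coloured by call, with the list median as a diamond. The mitotic and replication lists lie on the lower side, and lysosome, hypoxia and matrix lists, with medians of 0.35, 0.30 and 0.43, on the higher side.

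Cyclins and their regulators did not move as a block. Of 32 genes 14 were lower, 6 higher and 12 did not pass the test. The shares over all genes tested were 21.3% lower and 22.6% higher. The G1/S cyclin CCNE1 measured 15.13, 14.9 and 16.53 FPKM after E2F1 siRNA and 7.39, 8.89 and 8.52 FPKM after E2F3 siRNA (log2 difference -0.84, SE 0.09, limma adjusted p = 0.000185). CDKN1B, the p27 inhibitor of cyclin E complexes, measured 18.3, 15.1 and 16.13 FPKM after E2F1 siRNA and 32.61, 33.64 and 33.1 FPKM after E2F3 siRNA (log2 difference 0.97, SE 0.07, limma adjusted p = 4.39e-05). These opposite differences were each free of overlap. CCND1 (58.8 against 38.4 FPKM, log2 -0.60, SE 0.05), CCNA2 (53.9 against 39.8 FPKM, log2 -0.43, SE 0.05) and CCNB1 (186 against 121 FPKM, log2 -0.61, SE 0.04) were lower, CDK6 (18.1 against 27.3 FPKM, log2 0.56, SE 0.07) and the INK4 inhibitor CDKN2B (4.72 against 10.4 FPKM, log2 0.99, SE 0.09) were higher, and CDK1 and CDK4 did not pass the test (log2 0.09 and 0.00). For replication-dependent histones, 9 of 17 tested genes were higher and 0 lower, such as HIST1H2AC (8.75 against 17.2 FPKM, log2 0.90, SE 0.08). 30 of the 47 list members were below the minimum, and the near-identical copies make single histone genes uncertain.

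Genes of cell death and of the p53 response were mixed. BMF, a BH3-only activator of apoptosis, measured 8.84, 9.22 and 6.14 FPKM after E2F1 siRNA and 25.84, 27.86 and 25.72 FPKM after E2F3 siRNA (log2 difference 1.62, SE 0.13, limma adjusted p = 5.77e-05). BAX (53.5 against 76.5 FPKM, log2 0.51, SE 0.07) and APAF1 (10.2 against 15.3 FPKM, log2 0.54, SE 0.07) were also higher, whereas BBC3, the PUMA gene (7.66 against 5.51 FPKM, log2 -0.41, SE 0.08), and BAD (68.4 against 45.0 FPKM, log2 -0.59, SE 0.07) were lower. In that list 5 of 28 genes were higher and 9 lower. Of 31 p53 targets 6 were higher, 10 lower and 15 did not pass the test, including MDM2 (log2 0.00) and GADD45A (log2 0.01). The share called was 50% in the cell death list and 51.6% of p53 targets, near the 43.9% of all genes tested.

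Ribosome biogenesis was more often lower, and ribosomal protein genes mostly did not pass the test. Of 70 biogenesis genes 39 were lower and 4 higher, with a median log2 difference of -0.23. Calls covered 61.4% of this list and 57.9% of the proteasome list below, beside 43.9% of all genes tested. DHX37, a helicase of small-subunit assembly, measured 36.29, 38.05 and 37.21 FPKM after E2F1 siRNA and 15.3, 16.86 and 15.79 FPKM after E2F3 siRNA (log2 difference -1.17, SE 0.06, limma adjusted p = 6.96e-06). The assembly factors NOC4L (28.6 against 13.1 FPKM, log2 -1.07, SE 0.07), RRP12 (37.5 against 17.6 FPKM, log2 -1.05, SE 0.06) and TSR1 (41.3 against 24.5 FPKM, log2 -0.73, SE 0.06) were lower as well, and the nucleolar proteins NPM1 and NCL did not pass the test (log2 -0.09 and 0.02). MYC, an activator of these genes, was 216 against 174 FPKM (log2 difference -0.31, SE 0.05, limma adjusted p = 0.00183). Of 78 cytosolic ribosomal protein genes 16 were higher, 2 lower and 60 did not pass the test, or 23.1% called beside 43.9% of all genes tested. Proteasome subunits leaned lower, with 18 lower and 4 higher of 38, for example PSMD4 (184 against 114 FPKM, log2 -0.69, SE 0.04).

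Transcripts of the mitochondrial genome, which TFAM serves, were more often higher than lower. Of its 13 protein-coding genes 8 were higher and 1 lower, with a median log2 difference of 0.24. MT-CO2, a catalytic subunit of cytochrome oxidase, measured 9685.6, 9113.4 and 8842.5 FPKM after E2F1 siRNA and 12717, 13452 and 12862 FPKM after E2F3 siRNA (log2 difference 0.50, SE 0.05, limma adjusted p = 0.000182), and MT-ND5 was 1137 against 1412 FPKM (log2 0.31, SE 0.05). MT-ND1 did not pass the test (log2 0.01). With no filter on low values, MT-CO1 (log2 0.20) and MT-CO3 (log2 0.30) no longer passed, at adjusted p = 0.232 and 0.12. The same held for MT-ATP8 (log2 0.24, adjusted p = 0.558) and MT-ND6 (log2 0.39, adjusted p = 0.0715). MT-ATP8 was also lost with the replicate block (adjusted p = 0.0619), without the trend and in 3 fits with a library left out. MT-ND6 was also lost without replicate 3 of E2F3 siRNA (adjusted p = 0.051). Nuclear genes of the respiratory chain were called in 11 higher and 9 lower cases of 74, and mitochondrial ribosomal proteins in 13 and 28 of 77. These are 27.03% and 53.25% called, beside 43.9% of all genes tested. Single members ran both ways, with CYC1 (176 against 119 FPKM, log2 -0.56, SE 0.06) and MRPL15 (57.2 against 35.3 FPKM, log2 -0.68, SE 0.06) lower and MRPS23 (41.1 against 86.9 FPKM, log2 1.07, SE 0.07) and MRPS27 (32.2 against 55.7 FPKM, log2 0.78, SE 0.09) higher.

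Genes of protein folding and N-glycosylation in the endoplasmic reticulum leaned lower. Of 31 genes for chaperones and the unfolded protein response 16 were lower and 8 higher. The share called was 77.4% there and 42.9% in the glycosylation list below, beside 43.9% of all genes tested. PDIA4, a disulfide isomerase, measured 139.64, 134.05 and 140.99 FPKM after E2F1 siRNA and 55.6, 54.63 and 55.31 FPKM after E2F3 siRNA (log2 difference -1.31, SE 0.04, limma adjusted p = 1.27e-06). The lectin chaperones CANX (321 against 193 FPKM, log2 -0.73, SE 0.04) and CALR (724 against 525 FPKM, log2 -0.46, SE 0.03), the chaperone HSPA5 (284 against 233 FPKM, log2 -0.28, SE 0.05) and the response factor XBP1 (35.4 against 24.7 FPKM, log2 -0.50, SE 0.06) were lower, EDEM1 (13.4 against 26.6 FPKM, log2 0.94, SE 0.08) and DERL2 (17.9 against 34.4 FPKM, log2 0.90, SE 0.10), which serve the removal of misfolded proteins, were higher, and HSP90B1 did not pass the test (log2 0.07). The glycosylation list, RPN2 included, had 13 lower and 2 higher of 35, with the galactosyltransferase B4GALT1 (39.6 against 14.5 FPKM, log2 -1.39, SE 0.05), MAGT1 (66.2 against 32.6 FPKM, log2 -0.999, SE 0.06) and the glucosidase MOGS (34.6 against 19.5 FPKM, log2 -0.80, SE 0.05) lower. The oligosaccharyltransferase subunits DAD1 and DDOST did not pass the test (log2 0.00 and 0.10, the latter called under upper-quartile scaling at adjusted p = 0.0325).

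The amino acid stress response, driven by the factor ATF4, was mostly lower. Of 37 genes 21 were lower and 6 higher, with a median log2 difference of -0.29. These 73% called, and 85% of the tRNA synthetases below, stand beside 43.9% of all genes tested. ATF4 itself was 210.3 against 166 FPKM (log2 difference -0.34, SE 0.04, limma adjusted p = 0.000651). CHAC1, which degrades glutathione, measured 10.38, 8.9 and 9.31 FPKM after E2F1 siRNA and 3.25, 3.43 and 4.69 FPKM after E2F3 siRNA (log2 difference -1.15, SE 0.13, limma adjusted p = 0.000265). ASNS, asparagine synthetase, measured 104.38, 95.72 and 94.63 FPKM after E2F1 siRNA and 59.43, 55.83 and 53.73 FPKM after E2F3 siRNA (log2 difference -0.79, SE 0.06, limma adjusted p = 3.3e-05). TRIB3 (32.5 against 20.2 FPKM, log2 -0.67, SE 0.08), SESN2 (8.42 against 4.58 FPKM, log2 -0.75, SE 0.10) and DDIT3 (91.6 against 71.3 FPKM, log2 -0.36, SE 0.08) were lower too. The amino acid transporter subunits SLC7A5 (155 against 263 FPKM, log2 0.76, SE 0.05) and SLC3A2 (235 against 274 FPKM, log2 0.22, SE 0.04) were higher. Among tRNA synthetases 8 were higher and 9 lower of 20, and the 2 chains of the phenylalanine enzyme differed in opposite directions, with FARSA at 209.6 against 129 FPKM (log2 -0.69, SE 0.07) and FARSB at 17.2 against 31.2 FPKM (log2 0.82, SE 0.06). The composite element TGATGNAA, read by ATF4 and its partners, was searched on both strands and was present in 3 of 15 windows (20%) of the list, against 1.28% of tested genes and 3.62% of all windows. That of CHAC1, at chr15:40953232-40953299 (plus strand), is shown because this gene had the largest fall of the list, with the match, the reverse complement of the searched letters, in capitals.
CHAC1: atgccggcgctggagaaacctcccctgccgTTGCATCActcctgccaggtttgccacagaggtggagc

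Lipid synthesis genes showed a divided pattern. The cholesterol list had 12 lower and 7 higher of 29 genes, and the fatty acid list 8 lower and 4 higher of 25. These are 65.5% and 48% called, beside 43.9% of all genes tested. SREBF1, the sterol regulator of fatty acid genes, measured 124.19, 123.03 and 104.44 FPKM after E2F1 siRNA and 40.52, 55.61 and 44.02 FPKM after E2F3 siRNA (log2 difference -1.32, SE 0.12, limma adjusted p = 9.1e-05). SREBF2, its relative for cholesterol genes, measured 19.83, 20.74 and 19.27 FPKM after E2F1 siRNA and 24.71, 29.99 and 26.84 FPKM after E2F3 siRNA (log2 difference 0.42, SE 0.08, limma adjusted p = 0.0032). The groups were separate for both, in opposite order. LSS, lanosterol synthase (20.3 against 8.19 FPKM, log2 -1.22, SE 0.10), DHCR7 (99.4 against 62.05 FPKM, log2 -0.67, SE 0.09), FASN, fatty acid synthase (109 against 56.1 FPKM, log2 -0.95, SE 0.07), and SCD, the main desaturase (210.5 against 113 FPKM, log2 -0.89, SE 0.05), were lower, while the desaturase SCD5 (12.3 against 23.2 FPKM, log2 0.86, SE 0.06) was higher. SQLE did not pass the test (log2 0.14).

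Lysosomal genes were higher in 20 of 35 cases and lower in 2, with a median log2 difference of 0.35. The share called was 62.9%, beside 43.9% of all genes tested. LAPTM4B and OSTM1 from the leading rises belong to this list. SCARB2, a lysosomal membrane receptor, measured 15.02, 12.98 and 15.18 FPKM after E2F1 siRNA and 33.92, 32 and 32.01 FPKM after E2F3 siRNA (log2 difference 1.13, SE 0.07, limma adjusted p = 1.82e-05). The membrane protein LAMP1 (82.4 against 115 FPKM, log2 0.48, SE 0.05) and the transcription factors MITF (2.77 against 7.93 FPKM, log2 1.24, SE 0.14) and TFEB (7.71 against 11.8 FPKM, log2 0.56, SE 0.10) were higher. CTSD, a cathepsin, was one of the lower genes (161 against 129 FPKM, log2 difference -0.32, SE 0.08, limma adjusted p = 0.0161), and it no longer passed without replicate 1 or replicate 2 of E2F1 siRNA (adjusted p = 0.0541 and 0.0519) or with no filter (adjusted p = 0.0666).

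Matrix and mesenchymal genes leaned to the higher side. Among 43 tested of 58, 29 were higher, 2 lower and 12 did not pass the test. Their median log2 difference was 0.43, and 72.1% were called beside 43.9% of all genes tested. PLAU, the urokinase that activates plasminogen at the cell surface, measured 6.85, 7.02 and 6.76 FPKM after E2F1 siRNA and 18.99, 18.1 and 19.47 FPKM after E2F3 siRNA (log2 difference 1.33, SE 0.07, limma adjusted p = 6.53e-06). COL4A1, a basement membrane collagen, measured 5.45, 5.33 and 5.35 FPKM after E2F1 siRNA and 14.55, 13.93 and 14.56 FPKM after E2F3 siRNA (log2 difference 1.27, SE 0.07, limma adjusted p = 9.03e-06). Each E2F3 siRNA library exceeded each E2F1 siRNA library for both genes. The integrin ITGAV (7.53 against 16.8 FPKM, log2 1.06, SE 0.08), the crosslinking enzyme LOX (19.2 against 38.8 FPKM, log2 0.98, SE 0.05), fibronectin FN1 (27.2 against 37.7 FPKM, log2 0.46, SE 0.05), thrombospondin THBS1 (26.1 against 35.7 FPKM, log2 0.43, SE 0.08) and vimentin VIM (308 against 412 FPKM, log2 0.42, SE 0.04) were higher. Summed fibroblast markers were 18.4 to 21.1 FPKM after E2F1 siRNA and 15.3 to 17.9 FPKM after E2F3 siRNA, with COL1A1 as their highest gene, and their part in the differences was not tested. COL1A1, the 1 fibroblast marker that entered the test, was lower (log2 -0.34). Its call was lost without replicate 1 or replicate 2 of E2F1 siRNA (adjusted p = 0.0522 and 0.0532).

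Actin and junction genes gave further large differences. Calls in either direction covered 59.4% of the actin list, 51.7% of the junction list and 68.2% of YAP-linked genes. The share over all genes tested was 43.9%. MYH9, the heavy chain of non-muscle myosin, measured 34.95, 35.91 and 37.25 FPKM after E2F1 siRNA and 101.32, 102.82 and 99.97 FPKM after E2F3 siRNA (log2 difference 1.47, SE 0.05, limma adjusted p = 1.27e-06). JUP, plakoglobin of desmosomes and adherens junctions, measured 57.25, 61.78 and 56.47 FPKM after E2F1 siRNA and 146.12, 159.08 and 150.59 FPKM after E2F3 siRNA (log2 difference 1.36, SE 0.05, limma adjusted p = 2.6e-06). Neither gene showed overlap between the groups. In the actin list 16 were higher and 3 lower of 32, with TPM2 (10.2 against 21.8 FPKM, log2 1.03, SE 0.07), FLNC (6.1 against 15.7 FPKM, log2 1.23, SE 0.07) and CALD1 (61.3 against 104 FPKM, log2 0.75, SE 0.05) higher and FLNA not past the test (log2 0.03). The junction list was even, with 7 higher and 8 lower of 29, E-cadherin CDH1 (15.4 against 25.1 FPKM, log2 0.66, SE 0.09) and DSP (68.6 against 86.5 FPKM, log2 0.33, SE 0.04) being higher and PKP3 (49.4 against 33.8 FPKM, log2 -0.54, SE 0.07) lower. Of YAP-linked genes 11 were higher and 4 lower of 22, including the secreted proteins CCN1 (30.6 against 53.1 FPKM, log2 0.78, SE 0.07) and CCN2 (1.32 against 2.58 FPKM, log2 0.62, SE 0.13).

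Keratinocyte genes differed in both directions. Calls covered 61.3% of the basal list, 50% of the squamous differentiation list and 70.8% of EGFR and TGF-beta genes. The share over all genes tested was 43.9%. KRT16, a keratin of activated epithelium, measured 13.56, 13.26 and 12.06 FPKM after E2F1 siRNA and 3.52, 4.74 and 4.96 FPKM after E2F3 siRNA (log2 difference -1.38, SE 0.12, limma adjusted p = 7.16e-05). KRT14, the basal keratin, measured 37.17, 32.52 and 36.07 FPKM after E2F1 siRNA and 19.78, 19.13 and 20.47 FPKM after E2F3 siRNA (log2 difference -0.80, SE 0.07, limma adjusted p = 5.9e-05). Their values were lower without overlap, while the basal adhesion genes ITGA6 (38.9 against 65.5 FPKM, log2 0.74, SE 0.06), LAMB3 (72.1 against 94.9 FPKM, log2 0.39, SE 0.04) and COL17A1 (65.6 against 88.1 FPKM, log2 0.42, SE 0.05) were higher. The basal list held 11 higher and 8 lower of 31, and the list for squamous differentiation 5 and 6 of 22, with NOTCH1 (31.9 against 19.9 FPKM, log2 -0.65, SE 0.07) lower and SCEL (1.11 against 2.91 FPKM, log2 0.89, SE 0.10) higher. Among growth factor pathways, 12 of 24 EGFR and TGF-beta genes were higher and 5 lower. The receptors TGFBR2 (11.7 against 26.03 FPKM, log2 1.09, SE 0.07) and EGFR (60.5 against 74.8 FPKM, log2 0.30, SE 0.07) were higher, and ERBB2 (19.9 against 11.9 FPKM, log2 -0.69, SE 0.13) was lower.

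**Figure D4:**
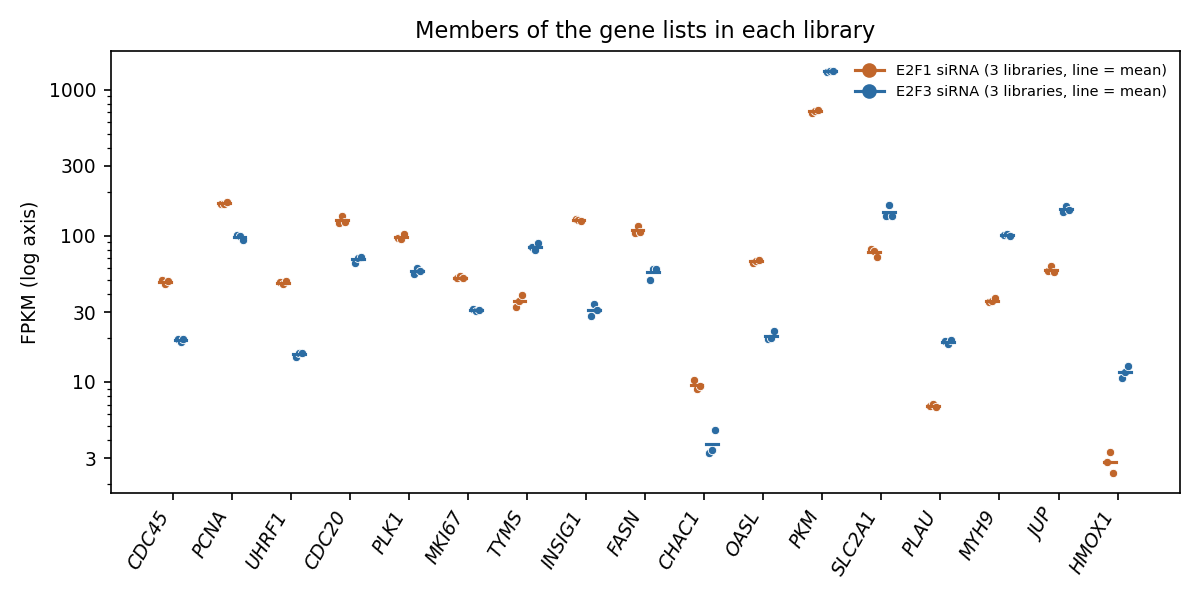
FPKM on a log axis of selected members of the gene lists, with 1 point for each of the 6 libraries and a line at each group mean. CDC45 lies at 48.4 against 19.3 FPKM and UHRF1 at 47.9 against 15.4 FPKM on the lower side, and TYMS at 35.8 against 84.0 FPKM on the higher side.

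Hypoxia-linked and glycolytic genes were higher in their majority or near it. Calls covered 78.1% of the hypoxia list and 64.3% of the glycolysis list, beside 43.9% of all genes tested. Of 32 hypoxia genes 19 were higher and 6 lower, with a median log2 difference of 0.30, and of 28 genes for glucose transport and glycolysis 13 were higher and 5 lower. PKM, pyruvate kinase, measured 690.03, 714.45 and 719.72 FPKM after E2F1 siRNA and 1316.9, 1342.6 and 1335.5 FPKM after E2F3 siRNA (log2 difference 0.91, SE 0.04, limma adjusted p = 2.64e-06). SLC2A1, the glucose transporter GLUT1, measured 80.74, 78.45 and 71.79 FPKM after E2F1 siRNA and 137.31, 163.48 and 137.3 FPKM after E2F3 siRNA (log2 difference 0.91, SE 0.08, limma adjusted p = 7.51e-05). SLC16A3, the lactate exporter MCT4, ran the other way, at 126.48, 139.03 and 117.82 FPKM after E2F1 siRNA and 53.6, 65.63 and 59.72 FPKM after E2F3 siRNA (log2 difference -1.09, SE 0.09, limma adjusted p = 4.89e-05). None of these 3 genes overlapped between the groups. EPAS1, the hypoxia factor HIF-2 alpha (13.9 against 31.1 FPKM, log2 1.11, SE 0.13), the carbonic anhydrase CA12 (6.15 against 13.8 FPKM, log2 1.04, SE 0.09), BNIP3L (24.4 against 48.5 FPKM, log2 0.96, SE 0.06) and the mTOR inhibitor DDIT4 (194 against 374 FPKM, log2 0.94, SE 0.06) were higher. VEGFA was lower (48.1 against 36.9 FPKM, log2 -0.37, SE 0.08), and HIF1A, BNIP3, ENO1 and PGK1 did not pass the test, with log2 differences of -0.02, -0.03, -0.02 and 0.07. The hypoxia response element, searched as ACGTGC or GCGTGC on both strands, was present in 9 of 18 windows (50%) of the hypoxia list and 8 of 15 (53.3%) of the glycolysis list, against 29.2% of tested genes and 18.9% of all windows. It was present in 27.2% of windows of higher and 30.8% of lower genes over the transcriptome. The windows of 2 higher genes are shown, PKM at chr15:72231144-72231209 (minus strand) and DDIT4 at chr10:72273769-72273834 (plus strand), with the match in capitals.
PKM: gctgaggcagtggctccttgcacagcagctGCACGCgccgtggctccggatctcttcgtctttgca
DDIT4: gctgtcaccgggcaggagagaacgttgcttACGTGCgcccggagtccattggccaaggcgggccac
In PKM the match is on the opposite strand, after the annotated start.

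Interferon-stimulated genes leaned lower. Of 57 tested genes 25 were lower, 10 higher and 22 did not pass the test. Over all genes tested the shares were 21.3% lower and 22.6% higher. OASL, a relative of the oligoadenylate synthetases, measured 65.21, 67.01 and 68.38 FPKM after E2F1 siRNA and 19.76, 19.83 and 22.48 FPKM after E2F3 siRNA (log2 difference -1.65, SE 0.06, limma adjusted p = 2.37e-06). IFIT1, which binds foreign RNA caps, measured 48.97, 46.74 and 52.87 FPKM after E2F1 siRNA and 15.83, 16.56 and 16.16 FPKM after E2F3 siRNA (log2 difference -1.55, SE 0.06, limma adjusted p = 2.6e-06). IFIT2 was 39.2 ± 2.52 against 10.5 ± 1.12 FPKM (log2 difference -1.81, SE 0.09, limma adjusted p = 6.15e-06), and this locus overlaps LIPA on the other strand, which stood at 20.2 against 40.3 FPKM. RSAD2 (5.61 against 1.63 FPKM, log2 -1.34, SE 0.14), HERC5 (12.2 against 4.39 FPKM, log2 -1.28, SE 0.10), IFIT3 (42.7 against 19.2 FPKM, log2 -1.12, SE 0.09) and the RNA sensor DDX58 (20.9 against 12.5 FPKM, log2 -0.71, SE 0.09) were lower. STAT2 (11.1 against 17.4 FPKM, log2 0.60, SE 0.09) and IRF9 (8.65 against 15.2 FPKM, log2 0.74, SE 0.14), which signal from interferon receptors, were among the higher genes, and OAS1 did not pass the test (log2 0.14). Summed leukocyte markers were 27.4 to 32.1 FPKM after E2F1 siRNA and 25.4 to 31.9 FPKM after E2F3 siRNA.

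Cytokine and stress genes were mixed. Of all genes tested, 43.9% were called in either direction. The same share was 41.7% in the cytokine list, 62.1% in the antioxidant list, 50% of immediate early genes and 23.5% of small RNA silencing genes. IL1B measured 3.25, 3.46 and 3.1 FPKM after E2F1 siRNA and 10.69, 11.17 and 10.23 FPKM after E2F3 siRNA (log2 difference 1.45, SE 0.08, limma adjusted p = 1.07e-05), and IL1A was also higher (10.3 against 19.9 FPKM, log2 0.89, SE 0.12). IL6 was lower, at 5.82, 5.54 and 4.88 FPKM after E2F1 siRNA and 3.23, 2.34 and 2.63 FPKM after E2F3 siRNA (log2 difference -0.78, SE 0.12, limma adjusted p = 0.0013), with 5 higher and 5 lower of 24 in that list. HMOX1, heme oxygenase, measured 2.84, 3.33 and 2.39 FPKM after E2F1 siRNA and 10.72, 11.72 and 12.79 FPKM after E2F3 siRNA (log2 difference 1.73, SE 0.11, limma adjusted p = 2.05e-05), while NFE2L2, the antioxidant factor NRF2, was lower (49.3 against 37.7 FPKM, log2 -0.38, SE 0.05) and its targets NQO1 and TXNRD1 did not pass the test (log2 -0.02 and 0.06). The antioxidant list had 11 higher and 7 lower of 29. Immediate early genes had 8 higher and 6 lower of 28, and genes of small RNA silencing, the machinery that siRNA itself uses, 1 higher and 3 lower of 17, with DROSHA and AGO1 not past the test (log2 -0.07 and 0.12).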

How the data were processed

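RNA-seq of total RNA gave 9 libraries of HK1 cells, and the authors deposited 1 table of FPKM values per library, per the file headers. The submitters' processing notes name Trimmomatic, TopHat, HISAT2, HTSeq and DESeq with the build GRCh38, and neither versions nor the order of use are given in the sources used here. Entries without an Ensembl identifier (726) were left out, and symbols came from GENCODE 29, with 56933 of 58381 identifiers matched exactly, 1328 without their version and 120 not matched.

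FPKM values are normalized to length and library total, so a large change in a few abundant genes shifts the others. Genes at 1 FPKM or more in at least 3 of the 6 libraries were tested on log2(FPKM + 1) with limma 3.58.1 (R 4.3.3, mean-variance trend, two-sided, Benjamini-Hochberg adjustment, threshold 0.05). In simulated data with 50 genes changed per fold, 24% of 1.25-fold, 68% of 1.5-fold, 96% of 2-fold and 100% of 4-fold changes were recovered. Of 155 genes called there, 11 were unchanged. Far fewer genes were changed in the simulation than passed in the data. The p-values measure the spread between libraries, which may be technical.

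The gene lists and the genes named were chosen with earlier results of these data known. Named genes are the 8 E2F genes, the 15 largest rises and 15 largest falls among genes that passed with a group mean of at least 5 FPKM and no overlap, the core members of each list, and the 5 members per list with the largest differences. Alternatives changed the libraries fitted, replicate block, pseudocount, filter, scaling, variance model, threshold and single libraries left out. Some genes of the lists are counted but not reported here by name.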

Additional observations from a re-analysis of the deposited data

How the results depend on the processing

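Of 473 named genes, 374 kept their side of the threshold under each alternative that refitted them, and 0 reversed direction. The stricter thresholds were not applied gene by gene, and the minimum of 5 FPKM kept 439 of the 473 in the test. The 5904 genes that passed became 6265 with all 9 libraries in the fit, 5849 with a pseudocount of 0.1, 4808 with no filter, 5163 with a minimum of 5 FPKM, 5903 with RLE scaling, 5968 with upper-quartile scaling, 5958 with robust variances and 5704 without the trend. Leaving out each library in turn gave 4950 to 5372 genes. An adjusted p under 0.01 left 3747 genes (1865 higher, 1882 lower), and a log2 difference of at least 1 left 411, by the construction of these limits. Upper-quartile scaling moved the split to 3554 higher and 2414 lower and the median of all genes to 0.06. The minimum of 5 FPKM moved the split to 2471 higher and 2692 lower and the median to -0.01. The log2 difference ranged from 1.38 to 1.46 for E2F1 and from -1.34 to -1.22 for E2F3 with a library left out, and that of the mitochondrial share from 1.83 to 2.46 percentage points.

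With the replicate number as a block, 5976 genes passed (3035 higher, 2941 lower). Deviations of same-numbered libraries correlated at 0.0905, 0.00683 and 0.0371 across genes, so the numbers were not taken to pair the libraries.

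The medians of the lists for DNA damage checkpoint, p53 targets, BCL2 family and caspases, NF-kB and cytokines, fatty acid synthesis, and basal keratinocyte genes lay near 0 and changed sign under at least 1 alternative. Absolute depth is unknown, which limits statements on genes near 1 FPKM, and strand use in counting is not given, which limits overlapping genes.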
